A study of Homo sapiens with 6 samples.

Results

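The forkhead (FOX) genes of J82 cells, a bladder cancer line of human origin in long use, were examined in 3 control libraries and 3 libraries labelled FOXC1 KO (knockout). Members were the protein-coding rows of the count table whose symbol is FOX, a letter, digits and at most 1 further letter, and 46 of 57820 rows met this rule. Per the labels, all cells were grown in DMEM with serum and FOXC1 was disrupted with LentiCRISPRv2, a lentiviral vector for Cas9 and a guide RNA. The study's text adds that the controls carried a vector, that cells were selected with puromycin and that knockout clones were tested on a Western blot. How many clones or cultures gave the 3 libraries of a group was not given in the sources used here, so p-values measure only the spread between these libraries.

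Forkhead proteins share a winged-helix DNA-binding domain and are sorted into subfamilies by letter. They bind related DNA words, and several of them can open closed chromatin. FOXA factors pair with GATA3 and PPARG in luminal urothelium, the surface layers of the bladder lining, FOXO factors are held out of the nucleus by AKT kinase, and FOXM1 drives genes of G2 and mitosis. FOXC1 acts in mesoderm, neural crest and the eye, where it has been described to act on FOXO1 transcription.

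The libraries held 18408134 to 25350908 counts. Some keratins and mesenchymal genes were well expressed, with KRT8 at 1658 and VIM at 315 CPM (counts scaled to library size) in control. These levels do not identify the line. CDH1 (0 to 3 counts), KRT5 (0 to 1 counts) and the uroplakins UPK1A, UPK1B, UPK2 and UPK3A (0 to 5 counts) were near zero. EPCAM was at 2.085 CPM in control. CD3E was at 0 counts in all libraries, although the sum of the leukocyte markers was 3.85 to 4.32 CPM in control and 5.51 to 6.63 CPM in libraries labelled KO, and the part of this in the results was not tested.

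The DNA just upstream of FOXC1, the targeted gene, and of FOXO1, the member with the smallest p in the comparison below, is shown because both proteins bind forkhead words. The 250 bases before each RefSeq start are given 5′ to 3′ on the strand of the gene in GRCh38.p14, at chr6:1609665-1609914 (plus strand) and chr13:40666642-40666891 (minus strand).
FOXC1: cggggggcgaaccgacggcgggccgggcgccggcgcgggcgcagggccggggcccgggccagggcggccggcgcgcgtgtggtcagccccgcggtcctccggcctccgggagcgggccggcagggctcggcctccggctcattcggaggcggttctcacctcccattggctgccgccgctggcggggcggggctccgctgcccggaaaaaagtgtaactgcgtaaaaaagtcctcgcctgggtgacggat
FOXO1: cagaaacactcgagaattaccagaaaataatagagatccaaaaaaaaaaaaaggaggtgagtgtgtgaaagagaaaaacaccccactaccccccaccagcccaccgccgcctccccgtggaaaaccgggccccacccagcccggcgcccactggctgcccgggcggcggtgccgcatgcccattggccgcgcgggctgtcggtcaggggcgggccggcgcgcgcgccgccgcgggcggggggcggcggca
The words TAAACA and GTAAATA, searched on both strands from 250 bases before to 50 bases after the start, would stand in capitals. No word was marked, because neither window holds one. TAAACA stands in 12.32% and GTAAATA in 2.67% of 35116 such windows of all genes. Of 46 such windows of members, 5 hold TAAACA and 1 holds GTAAATA. Windows were at hand for 35 members, some with several, and 5 of these members (FOXI2, FOXO3, FOXO4, FOXP1 and FOXB1) hold a word in at least 1 window. The 6 windows of 5 called members hold none. This describes the letters of these windows only.

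To determine which members J82 expresses, levels were first scaled to length as RPKM (CPM per kilobase of merged exons), the only scale on which genes are compared here. Of the 46 members, 25 passed the filter on low counts and were tested, 11 had a few counts and 10 were at 0 in all 6 libraries. A mean above 1 RPKM was reached by 15 members. The members summed to 142.3 ± 6.24 RPKM (SD, n = 3) in control and 136 ± 3.80 RPKM in libraries labelled KO, ranges of 136.9 to 149.1 and 133 to 140.3 that overlap.

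FOXM1, the mitotic factor, stood first by a wide margin, at 40.4 ± 4.11 RPKM in control and 31.4 ± 1.07 RPKM in libraries labelled KO. It made up 28.35 ± 1.70% of the length-scaled family total in control and 23.12 ± 1.03% in libraries labelled KO. FOXO3, a stress-responsive FOXO factor, followed at 15.1 ± 0.377 RPKM in control. FOXF1 (13.3 ± 0.998 RPKM), which acts in mesenchyme downstream of Hedgehog signals, FOXK2 (11.8 ± 0.895 RPKM) and FOXJ3 (11.3 ± 0.243 RPKM) followed in control. The control libraries of FOXM1, FOXO3 and FOXF1 did not overlap on this scale, while those of FOXF1 and FOXK2 and those of FOXK2 and FOXJ3 did. FOXC1 stood at rank 10, at 4.56 ± 0.304 RPKM in control, where its libraries overlapped those of FOXF2, the next gene in the order. With the length of the canonical transcript in place of merged exons, and by the mean over all 6 libraries, FOXK2 moved from rank 5 to rank 2 and FOXP1, whose merged exons span 32800 bases and whose canonical transcript has 7177, from rank 19 to rank 14.

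**Figure D1:**
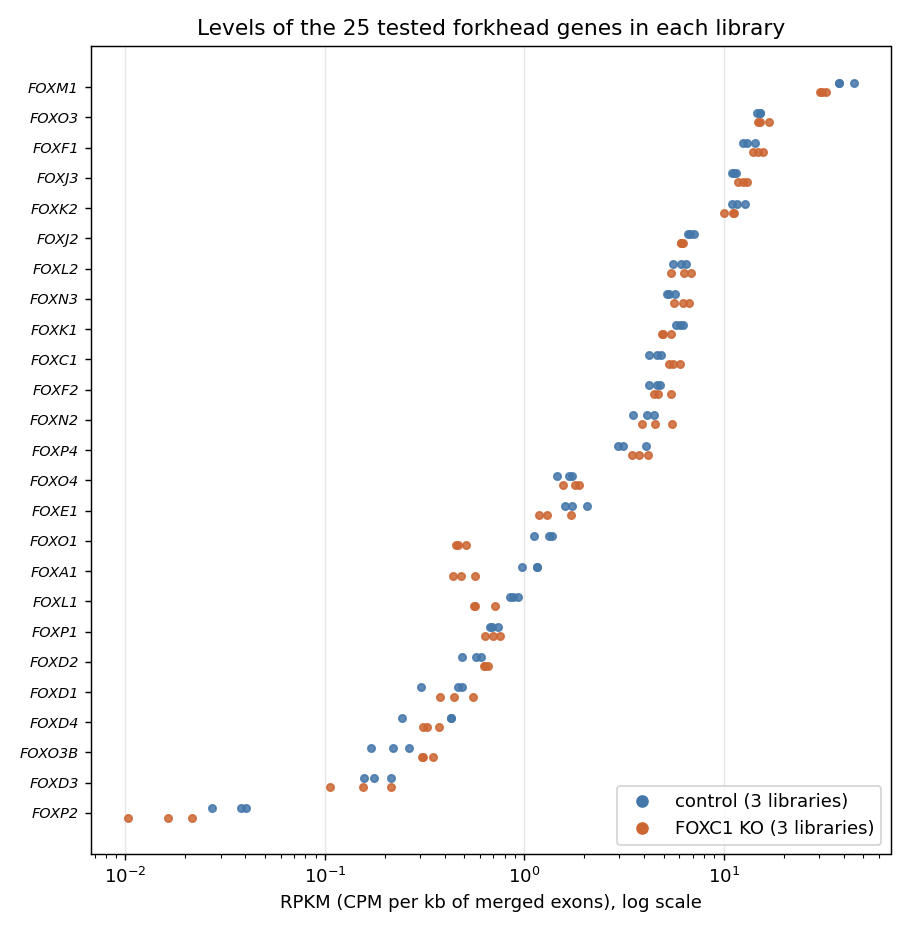
RPKM on a log scale for the 25 tested forkhead genes, ordered by mean level, with 1 point per library (blue control, orange FOXC1 KO). FOXM1 lies alone at the top, above 30 RPKM in all libraries, and FOXO1 and FOXA1 show the clearest separation of colours among genes near 1 RPKM.

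The plot of levels by library shows a family that spans more than 3 orders of magnitude in J82. The broadly expressed members (FOXM1, FOXO3, FOXJ2, FOXJ3, FOXK1, FOXK2, FOXN2, FOXN3, FOXP1 and FOXP4) all passed the filter. Among lineage-restricted members, J82 carried mesenchymal FOXF1 and FOXF2 and also FOXL2, a factor of ovarian granulosa cells, at 6.07 ± 0.453 RPKM in control.

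By subfamily, FOXM (28.35% of the length-scaled family total in control) was followed by FOXO (12.84 ± 0.661%), FOXJ (12.74 ± 0.385%), FOXF (12.58 ± 1.04%) and FOXK (12.51 ± 0.255%), which lay within their SDs of each other. This near tie rests on merged exon lengths. With canonical lengths, over all 6 libraries, FOXK2 went from 11.3 to 21.53 RPKM and FOXJ3 from 11.87 to 15.67 RPKM. FOXO3 went from 15.36 to 16.15 RPKM, and FOXF1 stayed at 14.12 RPKM. The shares were not computed on that scale. FOXC held 3.208 ± 0.194% in control and 4.143 ± 0.161% in libraries labelled KO, all of it from FOXC1. FOXA held 0.7705 ± 0.0556% in control and 0.3653 ± 0.0540% in libraries labelled KO, all of it from FOXA1.

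The 10 members at 0 in all libraries were FOXA2, FOXA3, FOXB2, FOXC2, FOXI2, FOXJ1, FOXL3, FOXN1, FOXR1 and FOXR2. They include FOXC2, the only other member of the FOXC subfamily, FOXJ1, the factor of motile cilia, and FOXN1, the factor of thymic epithelium. A count of 0 over a group allows up to 3 counts, for counting error only. The members with a few counts included FOXB1, FOXE3, FOXH1, FOXI1, FOXI3, FOXN4, FOXO6, FOXP3, FOXQ1 and FOXS1, with 0 to 15 counts per library.

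To examine how the members changed, the groups were compared with the quasi-likelihood test of edgeR across 15647 genes. A gene was called at an adjusted p under 0.05 and a change over 1.3-fold. Lower in libraries labelled KO were FOXA1, FOXE1, FOXL1, FOXO1 and FOXP2, and FOXO3B was higher. The calls made up 24.0% of the 25 tested members, against 16.0% of all tested genes (8.39% lower and 7.57% higher). Another 3 members (FOXM1, FOXK1 and FOXC1) had an adjusted p under 0.05 without reaching 1.3-fold, so that 36.0% of members passed on p alone against 29.4% of all genes. Among the 25 members, 11 had groups without overlap, against 41.3% of all genes. The median log2 fold change was 0.041 over the tested members and -0.0008 over all tested genes, and the median absolute change was 0.177 and 0.183. FOXP2 passed the filter on low counts through its 3 control libraries alone, so that its test had to find a difference in that direction. The counts and shares above still include FOXP2, although its call gives no support for lower members. Fewer cells that express a gene and less RNA per cell cannot be told apart in such bulk libraries.

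All 6 called members had a mean below 10 CPM. None of the 14 members above 10 CPM was called, where 11.9% of the 9733 tested genes above that level and 22.7% of those below it were called.

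**Figure D2:**
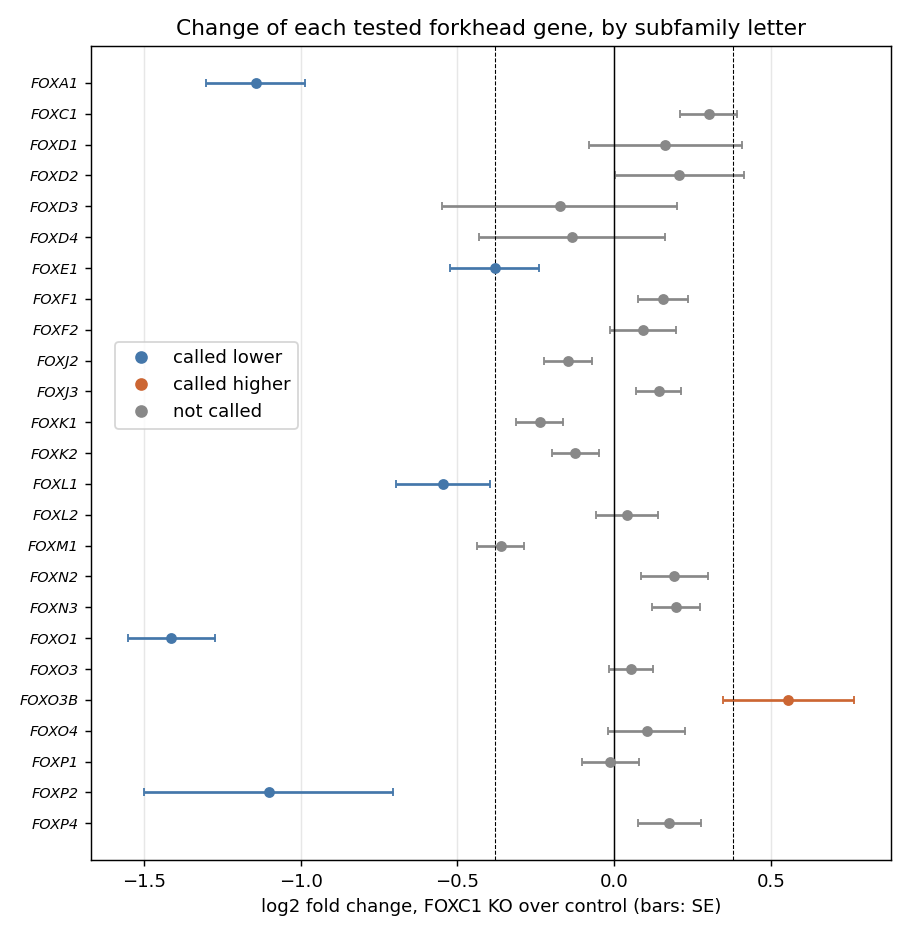
log2 fold change (FOXC1 KO over control) of each tested forkhead gene with its SE, in order of subfamily letter; dashed lines mark 1.3-fold. FOXO1 (-1.41), FOXA1 (-1.14) and FOXP2 (-1.10) lie far to the left with a long bar for FOXP2, and most other genes lie between the dashed lines.

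FOXC1 itself, the targeted gene, was examined as a check of the labels. FOXC1 (ENSG00000054598.5, a gene of 1 exon on chromosome 6, 1610150 to 1614132, plus strand, in hg19) was at 18.4, 16.9 and 19.3 CPM in control replicates 1 to 3 and at 24.1, 22.2 and 21.1 CPM in the replicates labelled KO. All values labelled KO were higher than all control values. The log2 change was 0.30 with an SE of 0.09 (edgeR, adjusted p = 0.0127), a 1.23-fold difference that was not called. The adjusted p was 0.0827 without control replicate 2 and 0.0784 without KO replicate 1. A small insertion or deletion in a coding sequence need not lower the transcript, so its level does not check the labels. The study's text reports that the knockout clones were checked by Western blot, with less FOXC1 protein in the knockout cells. That blot was not analysed here. FOXC1 shared no 75-base word with the transcripts of any other gene in the table.

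FOXO factors are the nuclear effectors that PI3K and AKT signals switch off, and they act on cell cycle exit, apoptosis and stress genes. Of 5 members, FOXO1 was lower, FOXO3B was higher, FOXO3 and FOXO4 were not called, and FOXO6 was not tested. FOXO1 (chromosome 13, 41129804 to 41240778, minus strand) was at 7.93, 6.63 and 8.25 CPM in control and at 2.72, 3.05 and 2.76 CPM in libraries labelled KO. The lowest control value was more than 2 times the highest value labelled KO. The log2 change was -1.41 with an SE of 0.14 (edgeR, adjusted p = 4.13e-09), or 2.66-fold lower, and it ranged from -1.51 to -1.35 over 13 alternatives, all of which kept the call.

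FOXO3, the most abundant FOXO gene, was at 112, 117 and 117 CPM in control and at 130, 114 and 116 CPM in libraries labelled KO. These ranges overlap, and the log2 change of 0.05 with an SE of 0.07 (edgeR, adjusted p = 0.616) did not pass the test. The difference between both genes was described as the log2 ratio of FOXO1 to FOXO3 within each library, a pair chosen after the values were seen. The ratio was -3.93 ± 0.184 (SD, n = 3) in control and -5.40 ± 0.179 in libraries labelled KO, with no overlap (exact permutation p 0.1, two-sided, the smallest that 3 against 3 libraries allow). FOXO1 alone already separated the groups, so this ratio adds no independent support. FOXO4 had a log2 change of 0.10 with an SE of 0.12 (edgeR, adjusted p = 0.575).

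FOXO6, a FOXO gene best known from brain, had 4, 1 and 5 counts in control and 12, 7 and 15 in libraries labelled KO, and it missed the filter on low counts. All values labelled KO exceeded all control values. Over the groups, 10 and 34 counts gave a ratio of 3.66 (95% interval 1.77 to 8.31, counting error only). Without the filter, edgeR gave a log2 fold change of 1.84 and an adjusted p of 0.00476, and DESeq2 gave an adjusted p of 0.0576.

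FOXO3B, a copy derived from FOXO3 on chromosome 17 (18570942 to 18585627, minus strand), was at 1.65, 1.06 and 1.38 CPM in control and at 2.17, 1.94 and 1.91 CPM in libraries labelled KO. The log2 change was 0.56 with an SE of 0.21 (edgeR, adjusted p = 0.0449). Of the 75-base words of its transcripts, 61.33% occur in another gene of the table and 33.49% in FOXO3, so its counts depend on how the authors' counting treated such reads. The call was lost in 7 of 12 alternatives, with an adjusted p of up to 0.220. Within 200 kb of FOXO3B, 4 of 10 tested neighbours were called higher, against 7.57% of all tested genes. Among them were FAM106A with a log2 fold change of 1.83, TRIM16L with 0.51 and TVP23B with 0.50 (named after their values were seen). RP11-815I9.4, a noncoding gene whose span overlaps FOXO3B, had 0.56 and was called too (chosen on the same terms). Its means of 1.38 CPM in control and 2.04 CPM in libraries labelled KO were close to the 1.36 and 2.01 CPM of FOXO3B. Whether both rows count the same reads was not tested, so RP11-815I9.4 may not be a separate neighbour among the 4.

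FOXA factors are pioneer factors of endoderm and of luminal epithelia, and FOXA1 was the only one with counts. FOXA1 (chromosome 14, 38058757 to 38065264, minus strand) was at 5.13, 4.30 and 5.11 CPM in control and at 2.12, 1.94 and 2.51 CPM in libraries labelled KO. The groups were well apart, with a log2 change of -1.14 with an SE of 0.16 (edgeR, adjusted p = 1.92e-06), or 2.21-fold lower. It ranged from -1.27 to -1.05 over 13 alternatives and was called in each. TTC6, whose annotated span overlaps FOXA1, was at 0.580 CPM in control and 0.137 CPM in libraries labelled KO, and it too passed the filter on low counts through control libraries alone. Of the others nearby, MIPOL1, 10427 bases away, had a log2 fold change of 0.46 (adjusted p 0.00386). Without a stated strand setting, reads of FOXA1 and TTC6 may not be fully separated.

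**Figure D3:**
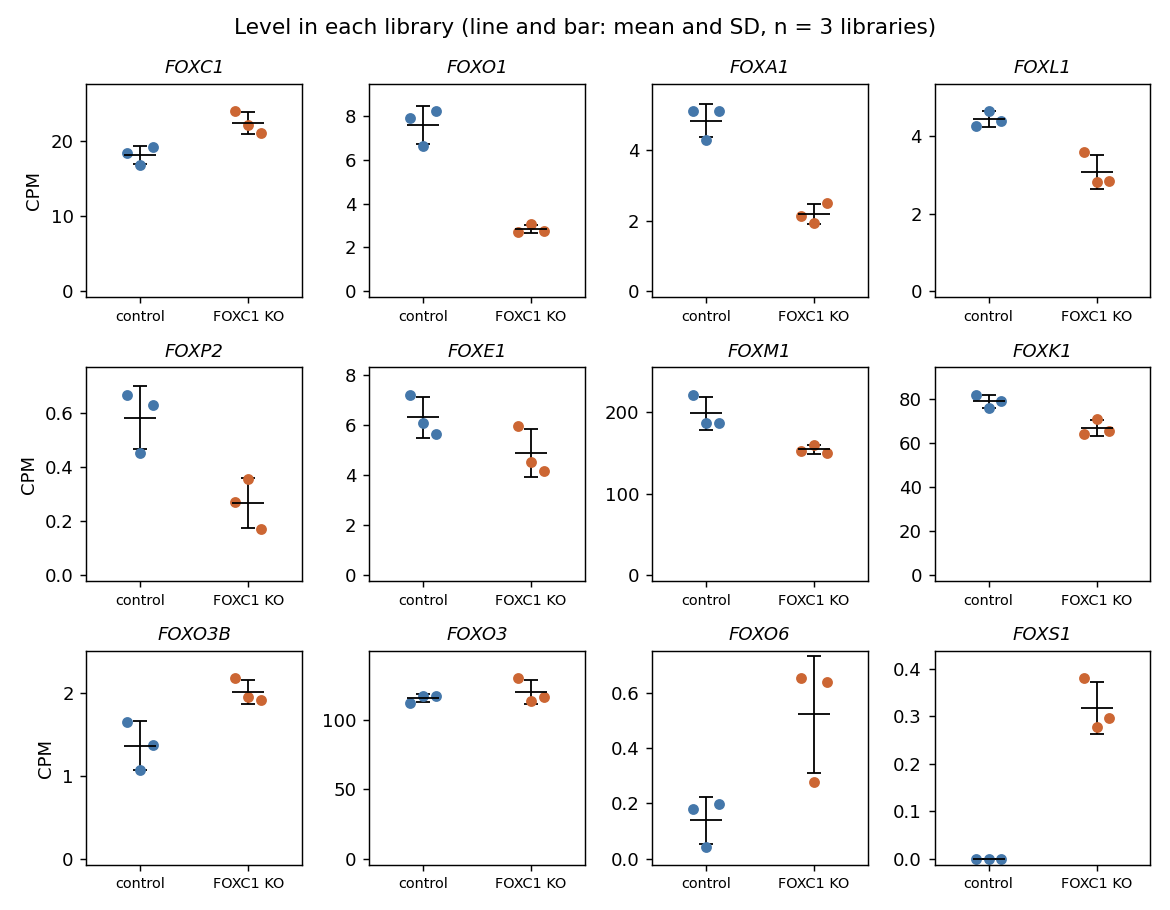
CPM in each library for 12 forkhead genes, with the mean and SD of the 3 libraries of a group; each panel has its own axis, and the axes include 0. FOXO1 and FOXA1 separate with wide gaps, FOXE1 overlaps between groups, and FOXS1 is at 0 in all control libraries.

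FOXL and FOXE members are factors of restricted tissues. FOXL1, a factor of gut mesenchyme (chromosome 16, 86609974 to 86617084), was at 4.28, 4.67 and 4.40 CPM in control and at 3.59, 2.81 and 2.85 CPM in libraries labelled KO. All values labelled KO were lower, with a log2 change of -0.55 with an SE of 0.15 (edgeR, adjusted p = 0.00602). The call held in 12 of 13 alternatives, and DESeq2 gave an adjusted p of 0.0501.

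FOXL1 lies in a cluster with FOXC2, which was at 0, and with FOXF1, 60946 bases away. FOXF1 was at 46.04, 44.02 and 50.9 CPM in control and at 55.4, 49.4 and 52.6 CPM in libraries labelled KO, groups that overlap (log2 fold change 0.16, SE 0.08, adjusted p 0.140 in edgeR). The log2 ratio of FOXL1 to FOXF1, a pair not planned in advance, was -3.40 ± 0.149 in control and -4.10 ± 0.133 in libraries labelled KO, without overlap (exact permutation p 0.1, the smallest possible). FOXL1 alone already separated the groups, so this ratio is no independent support. FENDRR, the long noncoding RNA beside FOXF1, had -0.27 (adjusted p 0.178).

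A further cluster on chromosome 6 holds FOXQ1, FOXF2 and FOXC1. FOXQ1 had 2 to 5 counts per library, and FOXF2, a mesenchymal factor like FOXF1, had a log2 change of 0.09 with an SE of 0.11 (edgeR, adjusted p = 0.558). GMDS, which is 9909 bases from FOXC1 and encodes an enzyme of GDP-fucose synthesis, had 0.26 (SE 0.08, adjusted p 0.0190), close to the 0.30 of FOXC1 and likewise under 1.3-fold.

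FOXL2 had a log2 change of 0.04 with an SE of 0.10 (edgeR, adjusted p = 0.798). FOXE1, a thyroid and palate factor, was at 7.22, 6.06 and 5.62 CPM in control and at 5.98, 4.52 and 4.16 CPM in libraries labelled KO. These groups overlap (exact permutation p 0.2). Its log2 change of -0.38 with an SE of 0.14 (edgeR, adjusted p = 0.0433), a change of 1.301-fold, was the nearest to the threshold among calls, and the call was lost in 6 of 13 alternatives.

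FOXM1 lay just under the threshold. It was at 222, 187 and 187 CPM in control and at 153, 160 and 150 CPM in libraries labelled KO, with no overlap. The log2 change was -0.36 with an SE of 0.07 (edgeR, adjusted p = 0.000393), a change of 1.285-fold. FOXM1 was called when control replicate 2 (-0.41), control replicate 3 (-0.40) or KO replicate 2 (-0.39) was left out. Without control replicate 1, its highest library, FOXM1 had -0.28 (edgeR, adjusted p = 0.00111), the weakest change of the 13 alternatives. Of its 75-base words, 11.97% occur in ITFG2, a neighbouring gene.

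FOXK factors repress autophagy genes and promote glycolysis. FOXK1 was at 82.1, 75.8 and 78.9 CPM in control and at 64.2, 71.1 and 65.3 CPM in libraries labelled KO, below control in all replicates. Its log2 change was -0.24 with an SE of 0.07 (edgeR, adjusted p = 0.0152), a 1.18-fold difference that was not called. The adjusted p of FOXK1 was 0.0585 without control replicate 3, 0.0689 without KO replicate 1 and 0.0504 without KO replicate 3. FOXK2 had -0.12 (SE 0.07, adjusted p 0.222). The log2 ratio of FOXK1 to FOXK2, also a pair not planned in advance, differed by -0.12 between groups, with an exact permutation p of 0.2.

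FOXP factors form dimers and repress transcription in lung, brain and lymphocytes. FOXP2, best known from brain, was barely expressed, with 15, 11 and 16 counts in control and 5, 9 and 4 in libraries labelled KO. No library labelled KO reached the filter of 0.419 CPM and all 3 control libraries did, so the following values are a description. The log2 change was -1.10 with an SE of 0.40 (edgeR, adjusted p = 0.0359). The call was lost in 6 of 11 alternatives, with an adjusted p of up to 0.207. FOXP1 (log2 fold change -0.01, SE 0.09, adjusted p 0.941) and FOXP4 (0.18, SE 0.10, adjusted p 0.200) did not pass. FOXP4 moved with the control libraries: it had 0.32 (adjusted p 0.0047) without control replicate 1, still under 1.3-fold, and 0.08 without control replicate 2. FOXP3, the factor of regulatory T cells, had 1 to 4 counts per library.

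No tested FOXJ or FOXN member was called. FOXJ2 was lower in all replicates labelled KO (log2 fold change -0.15, SE 0.08) and FOXJ3 higher in all (0.14, SE 0.07), but neither passed, with adjusted p of 0.158 and 0.139. FOXN3, a checkpoint-linked repressor, had 0.20 (SE 0.08, adjusted p 0.0554) and FOXN2 had 0.19 (SE 0.11, adjusted p 0.186). Without KO replicate 2 these became 0.26 (adjusted p 0.0201) for FOXN3 and 0.31 (adjusted p 0.0397) for FOXN2, and FOXN3 had 0.23 (adjusted p 0.0201) without control replicate 1. FOXN4, a factor of retinal progenitors, had 2, 3 and 1 counts in control and 0 in all libraries labelled KO. The 95% counting interval of its ratio reached up to 0.914 of control.

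FOXD factors are used in stroma and neural crest. FOXD1, FOXD2, FOXD3 and FOXD4 had 5 to 44 counts per library and log2 fold changes from -0.17 to 0.21, with adjusted p of at least 0.483. For FOXD1 76.26% and for FOXD4 40.09% of 75-base words occur in another gene of the table, which leaves their counts uncertain. FOXH1, a partner of SMAD proteins, had 8, 7 and 5 counts in control and 3, 3 and 4 in libraries labelled KO, a ratio of 0.538 (95% interval 0.225 to 1.21), and 35.6% of its words occur in KIFC2.

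FOXS1 showed an all-or-none pattern at low depth. FOXS1, a gene of 1 exon on chromosome 20 (30432106 to 30433407) known from perivascular and neural crest-derived cells, had 0 counts in all 3 control libraries and 7 counts in each library labelled KO. Over the groups, 0 against 21 counts put FOXS1 7.54-fold higher if control is set to a floor of 3 counts over the group, and the 95% counting interval of the ratio starts at 5.61. FOXS1 missed the filter on low counts, and without that filter edgeR gave an adjusted p of 2.22e-05. DESeq2 gave an unadjusted p of 0.000214 and set no adjusted p, because its own filter removed the gene. FOXS1 shared no 75-base word with another gene. Of the endothelial markers, CDH5 differed most, at 0.0131 CPM in control and 0.932 CPM in libraries labelled KO, while KDR was at 0.529 and 0.483 CPM and VWF at 0.178 and 0.258 CPM (PECAM1 was not matched). Their sum was 0.590 to 0.901 CPM in control and 1.55 to 1.90 CPM in libraries labelled KO, and their part in the result was not tested.

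Noncoding partners of the family were followed as well. Of 5 tested noncoding genes, 0 were called in edgeR or DESeq2, and 1 (FOXD2-AS1) had an unadjusted p under 0.05 in edgeR. FOXD2-AS1 (log2 fold change 0.43, adjusted p 0.0960), FOXN3-AS1 (-0.38, 0.161), FOXP4-AS1 (0.35, 0.562) and FOXD3-AS1 (0.04, 0.889) did not pass.

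Genes tied to these factors were then counted from lists, each read against the 16.0% of all tested genes that were called. The lists were chosen with earlier results of these data known. Their shares therefore describe the listed genes and are no independent support. In the luminal list, which holds partners of FOXA1, keratins, uroplakins and receptors, 14 of 25 genes were tested, 8 were lower and 0 were higher, with a median log2 fold change of -0.43. Lower members made up 57.14%, against 8.39% of all tested genes. KRT19 (-0.70, SE 0.08, adjusted p 8.06e-08 in edgeR), KRT8 (-0.60), TBX3 (-0.47) and KRT18 (-0.51) had the smallest p. PPARG (-0.45), GATA3 (-0.42), ELF3 (-0.87) and EPCAM (-0.86), named after their values were seen, were the others. Of the 6 tested genes that were not called, XBP1 went the other way without overlap between groups (123.7 and 146.8 CPM, 0.25, adjusted p 0.0102). FGFR3 (0.41), ERBB3 (0.22) and ERBB2 (0.07) had positive values that did not pass.

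PPARG, a nuclear receptor of urothelial differentiation, was at 121, 127 and 123 CPM in control and at 91.7, 87.8 and 92.4 CPM in libraries labelled KO. GATA3, a zinc finger factor of luminal cells, was at 37.6, 33.6 and 34.7 CPM in control and at 24.3, 28.1 and 26.4 CPM in libraries labelled KO. Both were lower in all replicates labelled KO, though by less than FOXA1. The sum of the epithelial markers, whose keratins are in this list too, was 3020 to 3841 CPM in control and 2368 to 2648 CPM in libraries labelled KO. KRT7 was at 992 and 948 CPM. Among mesenchymal markers, VIM was at 315 and 389 CPM, ZEB1 at 49.1 and 72.8 CPM and SPARC at 65.1 and 93.8 CPM in control and in libraries labelled KO, while FN1 was at 1184 and 1191 CPM and CDH2 at 209.8 and 194.5 CPM. Their part in the luminal result was not tested.

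**Figure D4:**
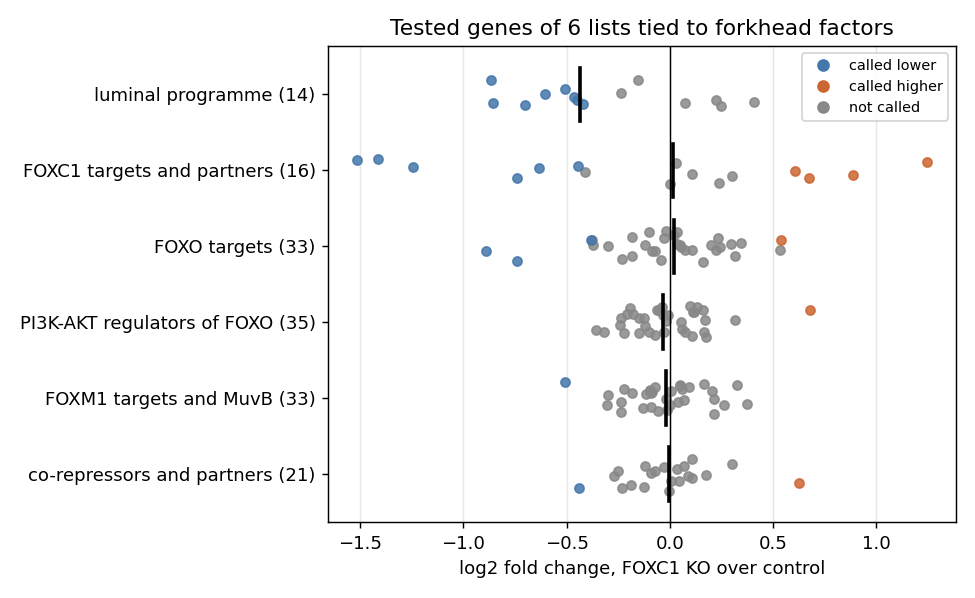
log2 fold change of each tested gene of 6 lists tied to forkhead factors (number tested in brackets), coloured by call; black bars mark medians. The luminal list has 8 of 14 genes called lower, the FOXC1 list has calls on both sides, and the FOXM1 list lies around zero.

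The list of genes described as FOXC1 targets or partners moved in both directions. Of 16 tested genes, 6 were lower and 4 were higher, so that 62.5% were called against 16.0% of all tested genes, with a median of 0.017. EDN1, which encodes endothelin, was 72.5 ± 2.73 CPM in control and rose to 172 ± 7.24 CPM (both SD, n = 3), a log2 change of 1.25 with an SE of 0.07 (edgeR, adjusted p = 3.98e-14). BMP4, a morphogen of the BMP family, was 30.9 ± 1.78 CPM in control and fell to 10.9 ± 0.751 CPM, a log2 change of -1.52 with an SE of 0.09 (edgeR, adjusted p = 2.48e-13). FOXO1 is itself a member, and KLF4, a factor of epithelial differentiation, had -0.74 (adjusted p 2.38e-08).

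Lists downstream of FOXO and FOXM1 held a smaller share of calls than the 16.0% of all tested genes. Most of their genes lay above 10 CPM, where 11.9% of tested genes were called, a share close to that of the FOXO targets. Of 33 tested FOXO targets, 3 were lower (KLF4, PDK4 with -0.89 and MXI1 with -0.38) and 1, TRIB1, was higher (0.54), or 12.12%. The median of this list was 0.019, and 36.4% of its genes had an adjusted p under 0.05, against 29.4% of all tested genes. Genes just under 1.3-fold went both ways. TNFSF10 had -0.375 (edgeR, adjusted p = 0.000607) and CDKN1B, a cell cycle inhibitor, had -0.37 (adjusted p 0.00194). GADD45A had 0.345 (edgeR, adjusted p = 0.000600) and PIK3CA 0.318 (adjusted p 0.00270). These genes were named after their values were seen, and 16 of the 33 tested genes had values below zero. Of 35 tested PI3K and AKT regulators of FOXO, 0 were lower and 1, SFN, was higher (0.68), while 37.1% had an unadjusted p under 0.05 in edgeR, against 39.8% of all tested genes (48.5% of the FOXO targets).

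Of 33 tested FOXM1 targets and subunits of MuvB, the complex that carries FOXM1 to mitotic promoters, 1 was lower and 0 were higher. An unadjusted p under 0.05 in edgeR was reached by 36.4%, against 39.8% of all tested genes. An adjusted p under 0.05 was reached by 30.3%, against 29.4%. The lower gene was CKS1B, a cyclin-dependent kinase subunit, with -0.51 (adjusted p 9.20e-06). Uncalled genes went both ways, such as CCNB2 with -0.304 (edgeR, adjusted p = 0.00147) and TTK with 0.374 (adjusted p 0.00228), named after their values were seen. The median of the list was -0.018, and 18 of its 33 tested genes had values below zero. Among co-repressors and partners of FOXK, FOXP and FOXN factors, 1 of 21 tested genes was lower (TLE4, -0.44) and 1 was higher (TLE3, 0.63).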

How the data were processed

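RNA-seq of J82 cells gave 6 libraries, 3 per group, grouped by their titles. The authors aligned paired 75-base reads to hg19 with STAR and counted them per GENCODE version 19 gene with featureCounts, and the deposited values are raw read counts without normalization. Tool versions and the strand setting are not given in the sources used here. All 57820 rows named a gene and entered the library totals.

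Symbols, gene types and lengths came from GENCODE version 44 lifted to GRCh37, the same assembly as hg19, by gene identifier (96.05% matched). Version 19 was not used here, so FOXO3B counts as protein-coding by the later annotation. Genes were kept with filterByExpr, scaled with TMM and compared with the robust quasi-likelihood test of edgeR 4.0.16 in R 4.3.3, with Benjamini-Hochberg adjustment over all 15647 genes. DESeq2 1.42.0 was an alternative. Standard errors were derived from the F statistic. CPM used TMM-scaled library totals. Exact permutation tests were two-sided, and the procedure was tested on simulated counts. Intervals and floors cover counting error only.

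Every tested member was named, and at most 4 called genes of each list by smallest p, with exceptions marked. Members and lists were chosen with earlier results of these data known. Alternatives were DESeq2, RLE factors, library size alone, no filter, a mean of at least 50 counts, the replicate number as a block, thinning, other fold thresholds and leaving out each library. Promoter windows came from RefSeq (GRCh38.p14), and shared 75-base words were searched in GENCODE transcripts on both strands. A planned comparison of protein sequences was not run. Some items are not reported here.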

Additional observations from a re-analysis of the deposited data

How the results depend on the processing

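Libraries of a group differed beyond sampling noise (chi-square of 2.95 to 10.1 per gene). Over 13 alternatives, 285 values of single members kept their direction and side of the call, 20 lost the call, 3 gained it (FOXM1) and 9 changed sign, the latter among uncalled members in fits that left out 1 library. The sign changed for FOXD1 (-0.032 to 0.29 across those fits, with -0.0 without KO replicate 2), FOXD3 (-0.4542 to 0.002), FOXD4 (-0.3652 to 0.0075), FOXL2 (-0.0432 to 0.1243), FOXO3 (-0.0088 to 0.092) and FOXP1 (-0.0755 to 0.0424).

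The 5 lower members became 2 with DESeq2, 3 after thinning and 3 at more than 2-fold, and 3 to 6 when 1 library was left out. They were 3 without control replicate 1 and 3 without KO replicate 3, where FOXE1 and FOXP2 were lost. The 1 higher member became 0 with DESeq2, with a mean of at least 50 counts and at more than 2-fold. It became 2 with no fold threshold (FOXC1 added) and 2 with no filter on low counts (FOXS1 and FOXO6, without FOXO3B), and it was 0 to 2 when 1 library was left out. FOXC1 ranged from 0.25 to 0.35, with an adjusted p of 0.0110 to 0.0827. Apart from genes that a filter removed, the cause was not tested.

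The libraries share only a number: same-numbered deviations correlated at -0.027, -0.072 and 0.050. With the number as a block, 4 members were lower and 1 was higher, because FOXE1 (-0.37) fell under 1.3-fold. Depth limits members with few counts, such as FOXP2, FOXO6 and FOXS1. The list settings, chosen after seeing the data, left 6 to 8 luminal genes lower.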
